A study of Mus musculus with 8 samples.

Results

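The interleukin-1 (IL-1) family and inflammasome genes described here are the 3 cytokine genes Il1a, Il1b and Il18, the antagonist genes Il1rn and Il18bp, the receptor gene Il1rap, the inflammasome genes Nlrp3, Pycard and Casp1, and the pore gene Gsdmd. They were taken by gene symbol and make up 10 of the 18635 genes measured. All 10 passed the filter on low values that was applied before testing. IL-1α, IL-1β and IL-18 are proinflammatory cytokines that macrophages make after they sense microbial products or tissue damage. IL-1β and IL-18 are made as inactive precursors and are cut by caspase-1, which is activated when a sensor such as NLRP3 recruits the adaptor ASC (encoded by Pycard), and the same protease opens gasdermin D so that it forms pores through which the mature cytokines leave the cell. IL-1 receptor antagonist, the product of Il1rn, occupies the IL-1 receptor without signalling, and IL-18 binding protein, the product of Il18bp, captures free IL-18. Only RNA was measured here, so that cutting, pore opening and release of the proteins lie outside these data.

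The study asked what loss of phosphoglycerate dehydrogenase (PHGDH), the enzyme that opens the serine synthesis pathway, does to macrophages exposed to tumour products. RNA was sequenced from 8 samples of tumor-educated macrophages (TEMs), which are bone marrow-derived macrophages (BMDMs) kept for 24 h in tumor-conditioned medium (TCM) from AE17, a mouse mesothelioma cell line. The marrow came from C57BL/6-background mice aged 6 to 8 weeks and was differentiated with L929-conditioned medium, a source of macrophage colony-stimulating factor. The submitters describe the samples as biological replicates, and do not say whether animals were pooled.

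The 4 control samples were Phgdh fl/fl TEMs, labelled wild type by the submitters, and the 4 samples of the other group were Phgdh fl/fl Cx3cr1-Cre TEMs from littermates. Both groups carried floxed Phgdh alleles and both received TCM. By design they differed in the Cre recombinase, with Cx3cr1 cre/+ in the Cre group and Cx3cr1 +/+ in the control group. The recombinase is expressed from the Cx3cr1 locus and so acts only in cells in which that locus is or has been active. Loss of PHGDH, presence of the Cre allele and any other inherited difference between the groups therefore cannot be told apart. Whether the groups differed elsewhere in the genome was not tested. No BMDMs free of TCM are part of this comparison. Phgdh itself was measured at 105 to 129 normalized counts in the control samples and at 14.2 to 35.3 in the Cre samples, without overlap, so that some Phgdh RNA remained in each Cre sample.

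The deposited value of a gene is its normalized count, the reads counted on the gene divided by a size factor for the sample. Between 38219563 and 47027420 reads per sample lay behind these values. The test was limma on log2(normalized count + 1) for each of the 13629 genes whose mean reached 10 normalized counts, with Benjamini-Hochberg adjustment of the p-values over all of these genes, and a gene was called changed at an adjusted p under 0.05. By this rule 41.0% of the genes tested were called, 20.8% higher and 20.3% lower in Cre TEMs, and the 4 values of each genotype did not overlap for 36.7% of them. All 8 macrophage markers examined were measured, with a summed level between 1008580 and 1121130 normalized counts in a sample, and 4 of them (Adgre1, Itgam, Fcgr1 and Cd14) were called lower in Cre TEMs. These are bulk samples, in which more cells of a type and more RNA per cell cannot be told apart.

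The DNA in front of the genes that moved most is shown here so that their start regions can be compared with that of the NLRP3 sensor gene, which was not called. Each is a RefSeq promoter window of GRCm38.p6 from 250 bases before to 50 bases after an annotated start, printed in the direction of transcription, and capitals mark matches to the 3 motifs searched. The motifs were the AP-1 site written TGANTCA, the promoter box written TATAAA (the TATA box) and the κB site bound by NF-κB, each looked for on both strands. The windows are Il1a at chr2:129309923-129310222 on the minus strand, Il1b at chr2:129371090-129371389 on the minus strand, the first of the 3 windows of Il1rn at chr2:24336610-24336909 on the plus strand, and the first of the 2 windows of Nlrp3 at chr11:59541319-59541618 on the plus strand.
Il1a: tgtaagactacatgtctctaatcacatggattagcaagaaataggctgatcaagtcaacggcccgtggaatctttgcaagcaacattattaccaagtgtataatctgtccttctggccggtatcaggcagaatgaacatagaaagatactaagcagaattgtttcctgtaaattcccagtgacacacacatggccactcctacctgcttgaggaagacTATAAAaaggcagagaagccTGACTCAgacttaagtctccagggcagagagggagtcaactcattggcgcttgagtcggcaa
Il1b: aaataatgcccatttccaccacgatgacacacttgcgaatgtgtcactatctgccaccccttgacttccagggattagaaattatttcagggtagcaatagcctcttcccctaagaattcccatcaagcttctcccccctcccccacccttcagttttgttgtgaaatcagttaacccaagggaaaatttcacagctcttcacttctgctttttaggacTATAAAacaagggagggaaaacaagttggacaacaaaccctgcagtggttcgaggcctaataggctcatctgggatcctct
Il1rn: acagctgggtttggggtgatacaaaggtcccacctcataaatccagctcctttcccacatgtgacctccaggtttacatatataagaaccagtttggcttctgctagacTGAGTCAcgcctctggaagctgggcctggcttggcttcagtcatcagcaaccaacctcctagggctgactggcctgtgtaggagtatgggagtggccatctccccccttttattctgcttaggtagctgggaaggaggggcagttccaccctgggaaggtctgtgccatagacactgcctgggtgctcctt
Nlrp3: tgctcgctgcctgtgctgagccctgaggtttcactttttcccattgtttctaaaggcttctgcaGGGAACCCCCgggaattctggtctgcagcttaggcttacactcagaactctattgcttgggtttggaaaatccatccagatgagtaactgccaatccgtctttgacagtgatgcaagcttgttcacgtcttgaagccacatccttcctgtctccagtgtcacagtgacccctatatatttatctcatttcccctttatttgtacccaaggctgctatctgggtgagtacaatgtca
Positions are given for the first base of a match, with the base just before the start as -1. Il1a had a TATA box at -32 and an AP-1 match at -12. The Il1b window had a TATA box at nearly the same place, at -31. The first Il1rn window had an AP-1 match at -141 and the first Nlrp3 window a κB match on the minus strand at -186. Among the 32851 promoter windows in the table, 13.6% had a TATAAA match, 7.81% an AP-1 match and 4.51% a κB match. These shares count a match at any place in the window and on either strand. RefSeq windows were at hand for 9 of the 10 genes (12 windows), and of those not printed, Il18 had a TATA match on the minus strand and the third Il1rn window a TATA match on the minus strand. No AP-1 match was found in the Il1rn windows that are not printed. A match of letters is a description of the DNA, and nothing was measured here on binding or accessibility at these sites. Which of the annotated starts of Il1rn and Nlrp3 was in use in these samples was not tested.

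All 3 cytokine genes rose in the TEMs that carry Cre, Il1a and Il1b by ratios of mean normalized counts of 1.57 and 1.55 and Il18 by less. Il1b (chr2:129364570-129371139, minus strand) was measured at 129, 122, 96.1 and 97.3 normalized counts in the control samples and at 185, 159, 143 and 201 in the Cre samples. Each Cre sample lay above each control sample. The means were 111 ± 17.0 and 172 ± 25.9 (SD, n = 4 each), and the log2 fold change was 0.62 ± 0.12 (SE) with an adjusted p of 0.00031 by limma. The exact two-sided permutation test over the 70 ways to split the samples gave p = 0.0286, the smallest it can give with 4 samples against 4. On the log2(FPKM + 1) scale, where the added 1 is close to the FPKM of Il1b itself, the log2 fold change was 0.40 (adjusted p = 0.00252 by limma).

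Il1a (chr2:129299610-129309972, minus strand), the other IL-1 receptor agonist, was measured at 51.1, 43.3, 39.3 and 27.7 normalized counts in the control samples and at 66.4, 68.6, 49.8 and 68.1 in the Cre samples. The groups overlapped at one point, since the third Cre sample lay just under the first control sample, and the other Cre samples were close to each other. The means were 40.3 ± 9.78 and 63.2 ± 8.98 (SD, n = 4 each), and the log2 fold change was 0.66 ± 0.19 (SE) with an adjusted p of 0.0072 by limma, while exact permutation, two-sided, gave p = 0.0571. Il1a was the least abundant of the 10 genes, with 29 to 55 reads in a control sample and 49 to 70 in a Cre sample, and counting alone gives a coefficient of variation of 15.4% at the control depth against the 24.2% found. A gene on the opposite strand, Gm14023, shares 222 bp of exon with Il1a, and it was measured at 12.5 to 19.5 normalized counts and was not called.

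Il18 (chr9:50554827-50581840, plus strand) was measured at 251, 255, 258 and 264 normalized counts in the control samples and at 312, 301, 270.4 and 299 in the Cre samples. The groups did not overlap, although the third Cre sample lay only just above the highest control sample. The control values had a coefficient of variation of 2.19%, below the 6.10% that counting alone gives at this depth. Their closeness, on which the lack of overlap rests, is thus tighter than read counting would usually give. The means were 257 ± 5.62 and 296 ± 17.7 (SD, n = 4 each), which gives a log2 fold change of 0.20 ± 0.07 (SE) and an adjusted p of 0.0269 by limma. This call was lost with DESeq2 on the recovered reads (adjusted p = 0.0699) and when single samples were left out (without control replicate 1 and without Cre replicate 1, 2 or 4).

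**Figure D1:**
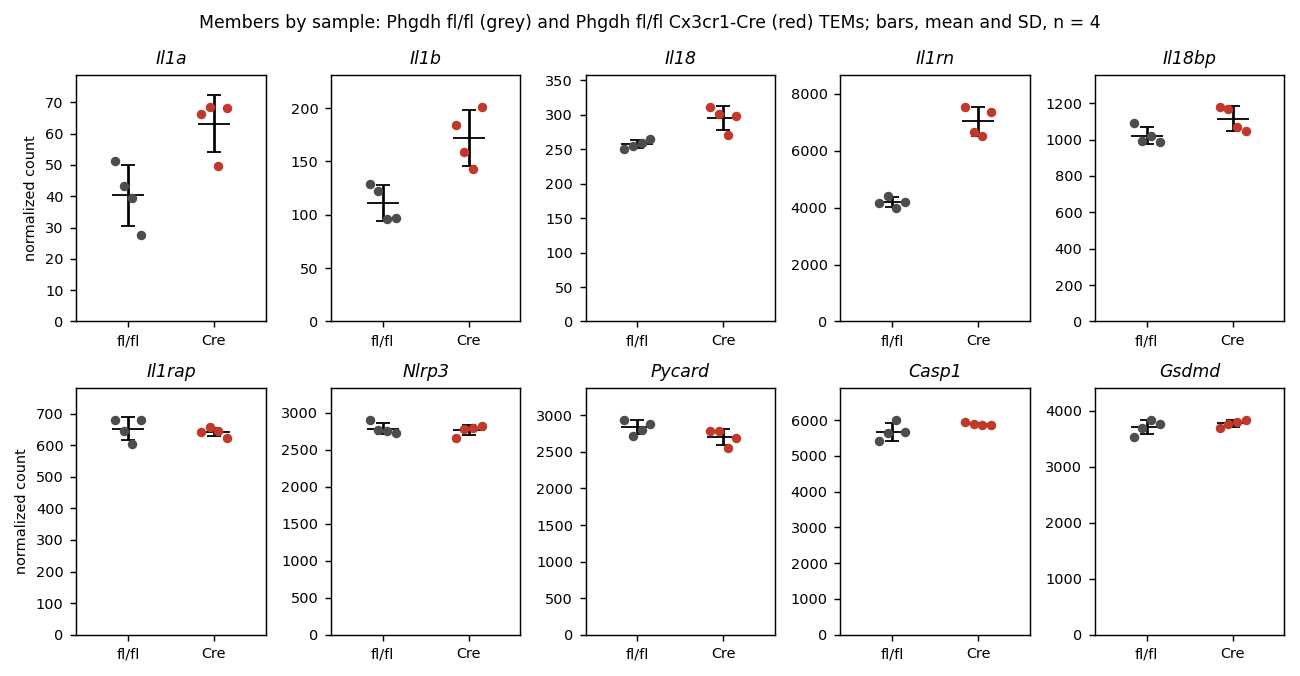
Normalized counts (y axes, linear, one panel per gene) of the 10 IL-1 family and inflammasome genes in the 4 Phgdh fl/fl and the 4 Phgdh fl/fl Cx3cr1-Cre TEM samples, with points for samples and lines with bars for the mean and SD. The groups are apart for Il1b, Il1rn and Il18, meet at one sample for Il1a, and overlap for the other 6 genes.

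Il1rn (chr2:24336853-24351494, plus strand), which encodes the IL-1 receptor antagonist, had the largest ratio between genotypes of the 10 genes. It was measured at 4169, 4397, 3994 and 4210.2 normalized counts in the control samples and at 7546, 6672, 6532 and 7373 in the Cre samples. The lowest Cre sample was far above the highest control sample. The means were 4192 ± 165 and 7031 ± 504 (SD, n = 4 each), which is a ratio of 1.68 and a log2 fold change of 0.74 ± 0.04 (SE) with an adjusted p of 3.4e-12 by limma.

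Il18bp (chr7:102014885-102018690, minus strand), the gene of the IL-18 antagonist, was measured at 1092, 989, 1017 and 988 normalized counts in the control samples and at 1180.3, 1167, 1068 and 1046 in the Cre samples. The first control sample lay above the 2 lowest Cre samples, so that the groups overlapped. The means were 1022 ± 48.9 and 1116 ± 67.9 (SD, n = 4 each), with a log2 fold change of 0.13 ± 0.05 (SE), an adjusted p of 0.0346 by limma and an exact two-sided permutation p of 0.0857. The call was lost with DESeq2 (adjusted p = 0.0558), with limma without a mean-variance trend (adjusted p = 0.106) and when control replicate 2, 3 or 4 or Cre replicate 1 or 2 was left out.

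The change in Il18bp stood in a stretch of chromosome 7 with many changed genes. Of the 25 other tested genes that start within 1 Mb of it, 17 (68.0%) were called, against 41.0% of the tested genes elsewhere, and 6 had an absolute log2 fold change over 1, against 1.24% elsewhere. Within 5 Mb, 64 of 107 genes were called (59.8%) and 15 had an absolute log2 fold change over 1. The changes ran in both directions: Folr2, a folate receptor gene at -0.16 Mb (toward lower coordinates) from the Il18bp start, fell by 1.28 on the log2 scale, and Stard10, a lipid transfer gene at -0.70 Mb, rose by 1.85. Numa1, a mitotic spindle gene on the opposite strand that shares 80 bp of exon with Il18bp, was measured at means of 8007 and 8598 normalized counts, a log2 fold change of 0.10 with an adjusted p of 0.00181 by limma. Whether the counting used strand is not stated in the sources used here, and the part of this neighbourhood in the Il18bp value was not tested. Around the other 9 genes, between 28.1% and 64.7% of the tested genes within 5 Mb were called, the highest share standing for 11 of 17 genes around Casp1.

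**Figure D2:**
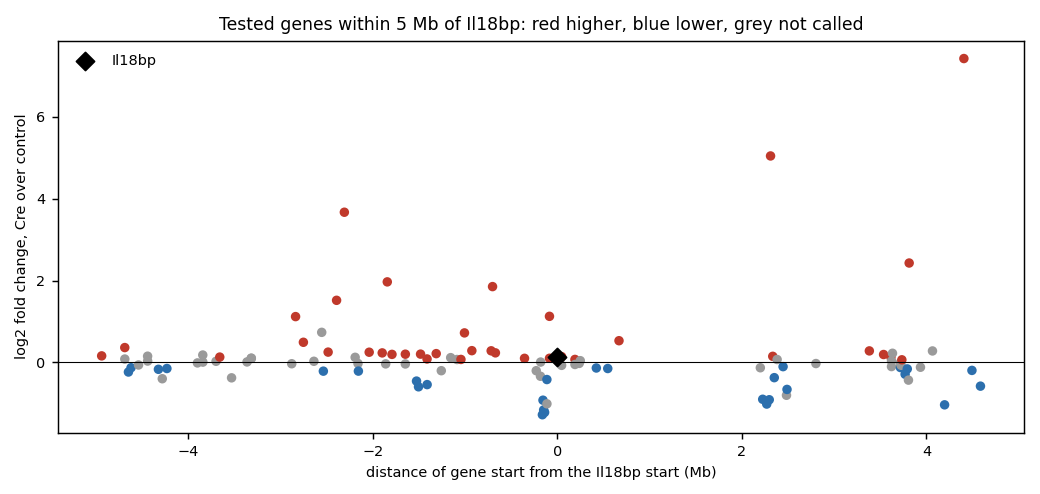
Log2 fold change (y axis, Cre over control) of each tested gene within 5 Mb of Il18bp against its distance from the Il18bp start (x axis, Mb), with called and not called genes marked. Il18bp at 0.13 sits among genes that range from -1.28 to 7.42.

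**Figure D3:**
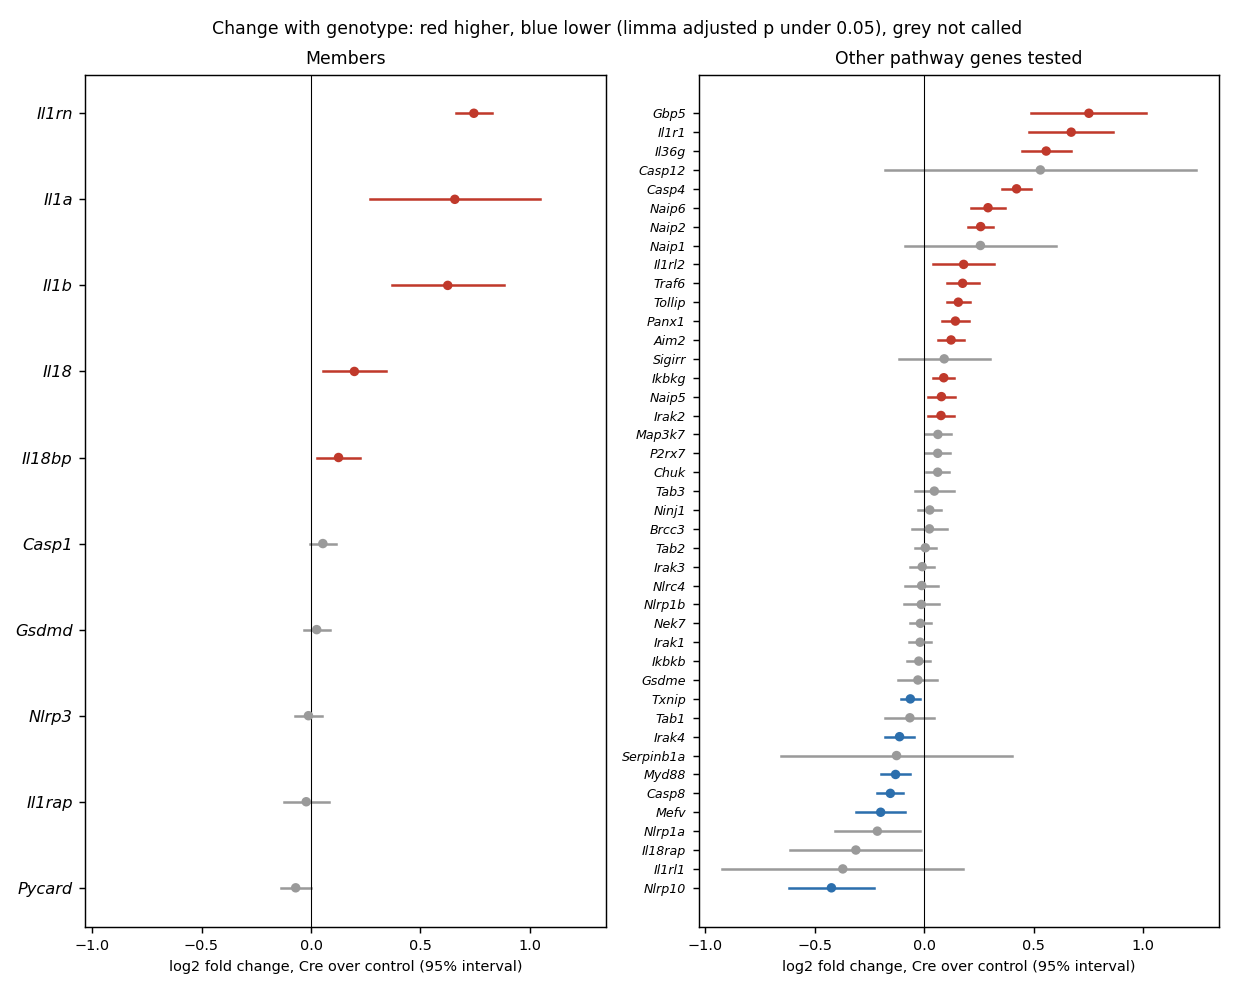
Log2 fold change (x axis, Cre over control) of the 10 genes with its 95% interval from limma. The intervals of Il1rn, Il1b and Il1a lie well above 0, those of Il18 and Il18bp lie just above it, and that of Pycard ends just under it.

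None of the 3 inflammasome genes was called, and their ratios between genotypes lay between 0.953 and 1.04. Nlrp3 (chr11:59541568-59566956, plus strand), which encodes the sensor, was measured at 2902, 2768, 2757 and 2721 normalized counts in the control samples and at 2662, 2782, 2796 and 2817 in the Cre samples. The groups overlapped over most of their range. The log2 fold change was -0.012, with a 95% interval from -0.07 to 0.05 and an adjusted p of 0.79 by limma, and the ratio of the genotypes had an interval from 0.950 to 1.04. A change of the size seen for Il1b was thus outside the interval for Nlrp3.

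Pycard (chr7:127989708-127993867, minus strand), the gene of the adaptor ASC, was measured at 2936, 2719, 2806 and 2883 normalized counts in the control samples and at 2793, 2781, 2551 and 2685 in the Cre samples. The lowest sample was a Cre sample and the highest a control sample, with overlap in between. The log2 fold change was -0.07, with a 95% interval from -0.14 to -0.00087 that ends just under 0, and the gene was not called (adjusted p = 0.099 by limma). Without control replicate 2 it was called lower, with an adjusted p of 0.0494 by limma. Gm45205, a gene on the opposite strand, shares 485 bp of exon with Pycard and was measured at 2.92 to 33.5 normalized counts.

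Casp1 (chr9:5298517-5307265, plus strand), the gene of the protease that cuts IL-1β and IL-18, was measured at 5403, 5632, 5999.6 and 5657 normalized counts in the control samples and at 5934, 5881, 5866 and 5861 in the Cre samples. The Cre samples lay close to each other, inside the wider range of the control samples. Among the Cre samples the coefficient of variation was 0.571%, below the 1.33% that counting alone gives. The log2 fold change was 0.05 with a 95% interval from -0.0038 to 0.11, and the adjusted p was 0.129 by limma. The gene was called higher when control replicate 3, the highest control sample, was left out (adjusted p = 0.0183) and when samples were scaled to their total of reads (adjusted p = 0.0497).

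Gsdmd (chr15:75862327-75867408, plus strand), which encodes the pore protein gasdermin D, was measured at 3540.2, 3696, 3832 and 3771 normalized counts in the control samples and at 3698, 3763, 3807 and 3835 in the Cre samples. The groups overlapped, and the log2 fold change was 0.03 with a 95% interval from -0.03 to 0.08 (adjusted p = 0.492 by limma). Il1rap (chr16:26581704-26730117, plus strand), the gene of the accessory chain that the IL-1 receptor needs to signal, was measured at 679.6, 645, 605 and 679 normalized counts in the control samples and at 641, 657, 646 and 623 in the Cre samples. All Cre samples lay inside the control range, with a log2 fold change of -0.022, a 95% interval from -0.12 to 0.08 and an adjusted p of 0.762 by limma.

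Over the 10 genes, 5 were called, all of them higher in Cre TEMs (Il1a, Il1b, Il18, Il1rn and Il18bp), and none was called lower. This is 50% of the genes, beside 41.0% of all genes tested, and the 5 called higher stand beside 20.8% of all genes tested called higher. DESeq2 on the recovered reads called 3 of the 10 (Il1a, Il1b and Il1rn), and edgeR called 5. Over all genes DESeq2 called 5007 and edgeR 5607, beside 5594 with limma. Values of the genotypes were fully apart for 3 of the 10 genes (Il1b, Il18 and Il1rn), all with higher Cre values, beside 36.7% of all genes tested in either direction and 18.4% with higher Cre values. In absolute log2 fold change, Il1rn stood at percentile 97.0 of all genes tested, Il1a at 96.0 and Il1b at 95.5, whereas Il18 stood at 69.1 and Il18bp at 50.9. The median log2 fold change was 0.09 over the 10 genes and -0.0018 over all genes tested.

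To compare the genes with each other, the recovered reads were expressed per length, as FPKM, using the union of annotated exons. In the control samples Casp1 was the most abundant of the 10 genes with a mean of 87.4 FPKM, followed by Gsdmd at 36.0 FPKM. Il1rn (17.5 FPKM), Pycard (17.2 FPKM) and Nlrp3 (15.9 FPKM) came next, and the samples of neighbours in this trio overlapped. Il18bp at 7.79 FPKM and Il18 at 5.76 FPKM were lower, and Il1b (1.35 FPKM), Il1rap (1.32 FPKM) and Il1a (0.472 FPKM) were the lowest, with Il1b and Il1rap overlapping.

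In the Cre samples the order of the 10 genes was the same, but Il1rn at a mean of 29.6 FPKM no longer overlapped Pycard at 16.6 FPKM, and Il1b at 2.10 FPKM no longer overlapped Il1rap at 1.32 FPKM. In both genotypes the RNAs of Casp1, Pycard and Nlrp3 were thus far more abundant per length than that of Il1b, whose protein caspase-1 cuts. Exon unions are longer than single transcripts, which lowers the FPKM of genes with long annotated exons, such as Il1rap with a union of 11360 bp. The unions of Pycard (3800 bp) and Il18bp (3026 bp) covered most of their loci. The order of the genes, and the overlap of Il1rn, Pycard and Nlrp3, therefore depends on this annotation.

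**Figure D4:**
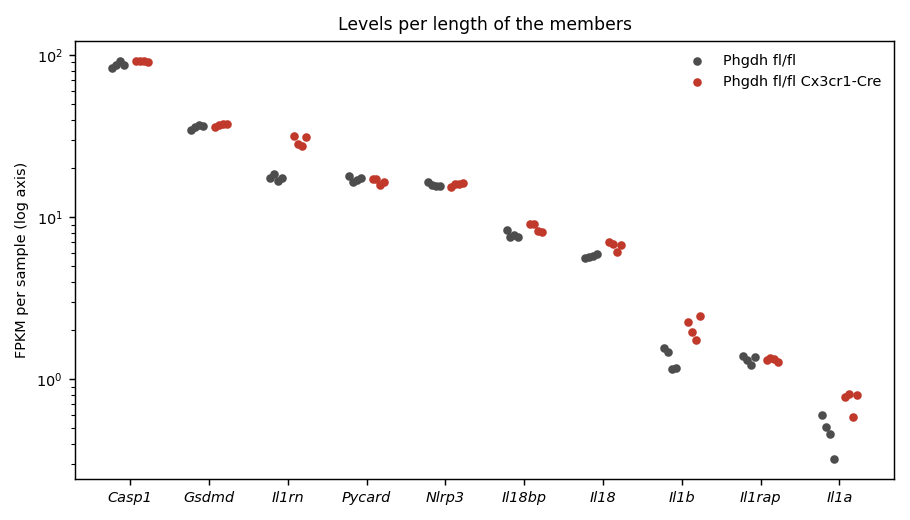
FPKM (log axis) of the 10 genes in each sample of the genotypes, ordered by the control mean, with points for samples. Casp1 is highest at 87.4 FPKM and Il1a lowest at 0.472 FPKM in the control samples, and the points of the genotypes are apart for Il1rn, Il1b and Il18.

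The balance of ligand and antagonist RNA was described by ratios of FPKM within a sample. The ratio of Il1rn to Il1b was 13.2 ± 1.75 in the control samples and 14.2 ± 1.27 in the Cre samples (SD, n = 4 each), with overlap. Il1rn to Il1a was 39.0 ± 10.8 and 40.2 ± 5.03, and Il18bp to Il18 was 1.36 ± 0.0896 and 1.29 ± 0.0663, both with overlap. Il1rn to Il1a ranged from 29.1 to 54.3 among the control samples alone. By comparison, the ratio of Il1b to Nlrp3 was 0.0848 ± 0.0112 in the control samples and 0.133 ± 0.0206 in the Cre samples without overlap, and that of Il1b to Casp1 was 0.0155 ± 0.00293 and 0.0229 ± 0.00344, also without overlap. These ratios were not tested on their own and share the values given above.

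**Figure D5:**
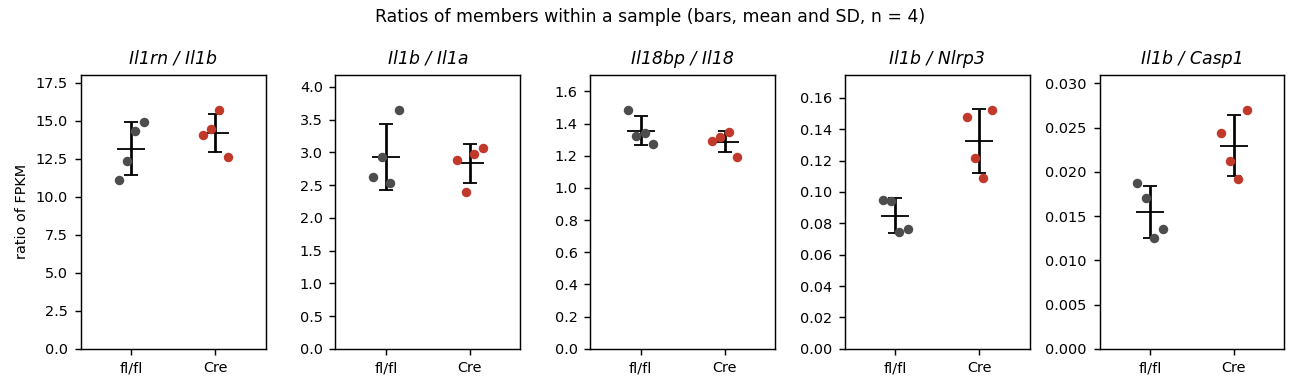
Ratios of FPKM between genes in each sample (y axes, one panel per ratio) in control and Cre TEMs, with points for samples and the mean and SD beside them. The antagonist to ligand ratios overlap between the genotypes, whereas Il1b to Nlrp3 has a control maximum of 0.0947 and a Cre minimum of 0.109.

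The other genes of the pathway were followed with a list of 62 genes in the same roles. Of these, 42 were tested, 3 were measured below the filter (Il36a, Il1r2 and Gsdmc4) and 17 were not analysed here. In Cre TEMs 14 were called higher and 6 lower, which is 47.6% of those tested beside 41.0% of all genes tested, and the median of their log2 fold changes was 0.04. Of the 20 called, 16 kept the call in each alternative analysis in which they were tested. The others kept it in only part of the 19 alternatives: Naip5 in 9, Il1rl2 in 10, Irak2 in 12 and Txnip in 14. For Il1rl2 and Irak2 the values of the genotypes also overlapped, so that these calls are weak.

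Among the ligands and receptors, Il36g, which encodes the agonist IL-36γ, rose from 611 ± 41.1 to 899 ± 52.0 normalized counts, a log2 fold change of 0.56 with an adjusted p of 4.4e-08 by limma. Il1r1, the signalling receptor for IL-1, rose from 139 ± 15.9 to 222 ± 5.33 normalized counts, a log2 fold change of 0.67 with an adjusted p of 4.9e-06. The Il1r1 samples did not overlap, with 125 to 159 normalized counts in control TEMs and 217 to 229 in Cre TEMs, while its partner Il1rap gave the values above. In the Cre samples the coefficient of variation of Il1r1 was 2.41%, below the 6.84% that counting alone gives. Il1rl2, the receptor for IL-36 cytokines, rose by a log2 fold change of 0.18 (adjusted p = 0.0367 by limma). Of the 5 receptors tested, 2 were called higher and none lower, which is 40% beside 41.0% of all genes tested.

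Of the 14 signalling genes tested between the receptor and NF-κB, which include inhibitors, 4 were called higher and 2 lower, all with small changes. That is 42.9% of the 14, beside 41.0% of all genes tested. Tollip, an inhibitor of IL-1 receptor signalling, rose by a log2 fold change of 0.16 and the ubiquitin ligase gene Traf6 by 0.18. The kinase gene Irak2 rose by 0.08 and the IKK subunit gene Ikbkg by 0.09. The adaptor gene Myd88 fell by 0.13 and the kinase gene Irak4 by 0.11 on the log2 scale, with adjusted p-values of 0.00241 and 0.00701 by limma.

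Of the 10 other inflammasome sensor genes tested, 4 were called higher and 2 lower, which is 60% beside 41.0% of all genes tested. The genes Naip2 and Naip6, whose family binds bacterial flagellin and secretion proteins, rose by log2 fold changes of 0.26 and 0.29, and Naip5 rose by 0.08. The Naip genes are near copies of each other, so that reads may have been assigned to the wrong member and these values are uncertain. Aim2, the sensor of cytosolic DNA, rose by 0.12, whereas Mefv, the pyrin gene, fell by 0.20 and Nlrp10 fell by 0.42 on the log2 scale.

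Among the genes that license or widen the response, Casp4 (the mouse caspase-11, which senses intracellular lipopolysaccharide and cuts gasdermin D) had the smallest adjusted p of the list. It rose from 1747 ± 15.8 to 2342 ± 82.0 normalized counts, with a control maximum of 1771 and a Cre minimum of 2261, a log2 fold change of 0.42 ± 0.03 (SE) and an adjusted p of 9.8e-10 by limma. In the control samples its coefficient of variation was 0.902%, below the 2.34% that counting alone gives. The guanylate-binding protein gene Gbp5 rose from 95.4 ± 18.3 to 160 ± 14.1 normalized counts, a log2 fold change of 0.75 with an adjusted p of 5.6e-05 by limma, and it too has close paralogs that may share reads. The channel gene Panx1 rose by 0.14. Casp8, a caspase that can also cut IL-1β, fell by 0.15 on the log2 scale, and Txnip, a thioredoxin-binding protein gene, fell by 0.06. Neither of the 2 other pore genes tested, Gsdme and Ninj1, was called.

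Over the 8 samples, the profiles of Il1b and Nlrp3 were also set beside all 10515 genes with a mean of at least 100 normalized counts, as the mean absolute difference of log2 values centred on each gene's own mean. The 3 genes nearest to Il1b were Pcx, the gene of pyruvate carboxylase, at 0.0945, Ccdc57 at 0.0961 and Gpc1, a glypican gene, at 0.0969. Their log2 fold changes were 0.56, 0.60 and 0.58. Genes near to Nlrp3 were Cbll1 at 0.0124 and Slc2a9, a urate transporter gene, at 0.0132, and neither was called. Among the 10 genes themselves, Casp1 and Gsdmd were the closest pair at 0.0235, and Il1b lay at 0.135 from Il1rn and 0.136 from Il1a.

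Markers of other cells that make IL-1 were checked in the same samples. Of 10 neutrophil markers only S100a8 was analysed here, at 467 to 575 normalized counts in control and 576 to 631 in Cre TEMs, and it was called higher with a log2 fold change of 0.23 (adjusted p = 0.0044 by limma). The summed dendritic cell markers (4 of 6 analysed here) lay at 44.6 to 72.5 normalized counts in control and 65.5 to 95.6 in Cre TEMs, and neither of the 2 tested was called. Markers of T cells summed to at most 64.2, of natural killer cells to at most 21.4, of fibroblasts to at most 49.6 and of mesothelial cells to at most 5.08 normalized counts in a sample, and none of those tested was called. The B cell marker Cd79b was lower in Cre TEMs, by 0.63 on the log2 scale. The markers of mast cells, basophils and erythroid cells were not analysed here. The part of the S100a8 and dendritic cell values in the Il1a, Il1b and Il1rn differences was not tested.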

How the data were processed

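The authors mapped single-end reads to mm10 with TopHat2, counted them per gene with HTSeq (version 0.6 per the submitters' notes) and compared the genotypes with DESeq2. The deposited sample values and their mean are a signal per gene, the read count over the sample's size factor, although the file is called FPKM. Their own comparison, which the authors deposited as log2 fold changes with standard errors, a Wald score and p-values, was not used. Whole reads were recovered for 100% of the 144353 values above 0 (tolerance 0.01 reads), with size factors between 0.889 and 1.09. The test between genotypes was limma 3.58.1 under R 4.3.3 (eBayes with trend, two-sided, without covariates) on log2(normalized count + 1), which understates changes of low genes. Single genes were also tested by exact permutation in Python 3.11.15 with scipy 1.17.1. Levels between genes used FPKM from the recovered reads and GENCODE M21 exons (18629 of 18635 genes matched). Promoter windows came from RefSeq (GRCm38.p6).

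The genes named are the 10 genes of the family, Phgdh, the called genes of the pathway list, changed neighbours where a result turns on them, the 3 nearest profiles to Il1b and to Nlrp3 (1 of these is not reported here), and the markers. The genes, lists and tests were chosen with earlier results of these data known. Alternatives were edgeR 4.0.16 and DESeq2 1.42.0 on the recovered reads, a pseudocount of 0.1, a filter at a mean of 50 or none, log2(FPKM + 1), quantile normalization, scaling to total reads, eBayes without trend, a replicate block, a covariate for replicates 1 and 4, and leaving out each sample. Each pair of samples of a genotype differed by more than sampling noise (chi-square per gene from 1.79 to 6.20), and all 8 were kept. The fits were tested on simulated counts. The spread between samples was above the counting error in both genotypes for Il1a, Il1b, Il1rn, Il18bp, Nlrp3 and Pycard.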

Additional observations from a re-analysis of the deposited data

Results flagged for a closer look

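Within the 4 Cre samples, Il1a was set apart by 1 sample: replicate 3 was measured at 49.8 normalized counts and the others at 66.4 to 68.6, a gap of 0.882 of the group's range, above the 95% critical value of Dixon's test. Of the 20 groups looked at (10 genes in 2 genotypes) this was the only one, and chance gives about 1 in 20. Without this sample the log2 fold change of Il1a was 0.77 with an adjusted p of 0.00404 by limma, against 0.66 and 0.0072 with it.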

How the results depend on the processing

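Il1a, Il1b and Il1rn kept their direction and their call in all alternatives in which they were tested, with log2 fold changes of 0.49 to 0.78, 0.55 to 0.71 and 0.71 to 0.78 when single samples were left out. The lowest value for Il1b was 0.40, with log2(FPKM + 1). Il1a fell below the filter for log2(FPKM + 1) and was not tested there. DESeq2 called 5007 genes, 3 of the 10 among them as higher, but not Il18 (0.20, adjusted p = 0.0699) or Il18bp (0.13, adjusted p = 0.0558). Without the trend Il18bp was not called (0.13, adjusted p = 0.106). Scaling to total reads brought Casp1 to 0.069 with an adjusted p of 0.0497 and turned Nlrp3 to 0.0034, and log2(FPKM + 1) turned Nlrp3 to 0.0032, neither past the threshold. That scaling moved the median of all genes from -0.0018 to 0.013. Leaving out 1 sample at a time gave 3 to 5 of the 10 genes higher and 0 to 1 lower, beside 4966 to 5917 of all genes called. The log2 fold changes were then 0.17 to 0.24 for Il18 (adjusted p from 0.0143 to 0.0833 by limma) and 0.098 to 0.16 for Il18bp. They were -0.023 to 0.0080 for Nlrp3, -0.090 to -0.043 for Pycard and 0.031 to 0.081 for Casp1. The cause of these shifts was not tested. Over all alternatives between 4813 and 5917 genes were called.

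Samples with the same replicate number shared little: their deviations from the group means correlated at 0.063 to 0.126, not all over 0.1, so that the numbers were not taken to pair the samples, and not every sample correlated best with its own number. Across genotypes, correlations were positive within replicates 1 and 4 (0.063 to 0.135) and within replicates 2 and 3 (0.048 to 0.126). Between these sets all were negative (-0.124 to -0.036). Deviations from a group mean cancel within the group, so positive values within the sets bring negative values between them. The covariate for replicates 1 and 4 follows this split, which was read from these same data, and is balanced over the genotypes. It therefore leaves the log2 fold changes as they were and can move only the p-values. With it 5642 genes were called, and the 5 genes called in the main test were called again. What sets these replicates apart was not tested. With a replicate block 5597 genes were called instead of 5594, the same 5 genes of the family were called higher, Il18 with an adjusted p of 0.0372 and Il18bp with 0.0202 by limma, and no call among the 10 genes changed.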
